A study of Mus musculus with 11 samples.

Results

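The genes described here encode the Arp2/3 complex, the protein assembly that starts actin branches, together with cofilin. They were taken by gene symbol: Arpc1a, Arpc1b, Arpc2, Arpc3, Arpc4, Arpc5, Arpc5l, Actr2 and Actr3 for the complex, and Cfl1 for cofilin. All 10 were among the 16228 genes of the deposited table, and all 10 passed the filter on low values that left 14330 genes for testing. The values come from bulk RNA sequencing of cerebral cortex, taken with a 4 mm punch from mice at postnatal day 30 with no treatment, 1 library per sample and 11 in all. The 4 controls carried a floxed allele of the kinase gene Prkcz and no Cre is named in their labels: controls 1 and 2 were Pkcz f/+ and controls 3 and 4 were Pkcz f/f. The 4 Prkci cKO samples were Ng2 Cre+ Prkci f/f, and the 3 Prkcz cKO samples were Ng2-Cre+ Prkcz f/f. The labels describe the replicates of each genotype as biological. The Ng2 (Cspg4) promoter is active in oligodendrocyte precursor cells and also in the mural cells of blood vessels, so most cells of a cortical punch would keep the floxed gene. Controls of the Prkci line, or with Cre but no floxed gene, were not analysed here, so the deleted gene, the line and Cre cannot be told apart in the comparisons with controls.

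The Arp2/3 complex binds to the side of an existing actin filament and nucleates a new one at an angle, which builds the branched networks of lamellipodia and growth cones. Its actin-related proteins, encoded by Actr2 and Actr3, form the seed of the branch, and the ARPC subunits hold them together and bind the mother filament. Some subunits exist in alternative forms: ARPC1A or ARPC1B, and ARPC5 or ARPC5L, each complex holding one of each pair. ARPC1B is the form best known from blood cells and their descendants, and its loss in people causes an immune deficiency. Nucleation promoting factors of the WASP and WAVE families switch the complex on, and cofilin severs and disassembles older filaments. In oligodendrocytes, the myelin-forming cells of the brain, branched actin drives the extension of processes towards axons, and actin disassembly accompanies the wrapping of myelin. PRKCI and PRKCZ, the atypical protein kinases C, belong to the polarity complex that also acts on actin through small GTPases.

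Arpc1a and Arpc1b, the 2 forms of the same subunit, lie next to each other on mouse chromosome 5 (GRCm38, GENCODE M21). Arpc1a (ENSMUSG00000029621.14) spans chr5:145083830-145108761 on the plus strand and Arpc1b (ENSMUSG00000029622.16) spans chr5:145114215-145130705 on the same strand, with 5453 bases and 0 annotated genes between them. Their promoters are shown because the 2 neighbours had different patterns in these samples, described below. Each sequence runs from 250 bases before to 50 bases after the RefSeq start (GRCm38.p6, plus strand, 5′ to 3′), at chr5:145083619-145083918 for Arpc1a and chr5:145114006-145114305 for Arpc1b. Capitals mark matches to the motifs listed after the sequences, on either strand.
Arpc1a: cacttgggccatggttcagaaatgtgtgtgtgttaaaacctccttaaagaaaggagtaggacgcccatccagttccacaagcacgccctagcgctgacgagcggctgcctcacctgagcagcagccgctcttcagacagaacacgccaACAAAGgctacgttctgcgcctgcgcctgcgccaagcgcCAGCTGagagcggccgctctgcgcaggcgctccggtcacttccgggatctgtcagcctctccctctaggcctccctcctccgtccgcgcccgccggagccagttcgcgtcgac
Arpc1b: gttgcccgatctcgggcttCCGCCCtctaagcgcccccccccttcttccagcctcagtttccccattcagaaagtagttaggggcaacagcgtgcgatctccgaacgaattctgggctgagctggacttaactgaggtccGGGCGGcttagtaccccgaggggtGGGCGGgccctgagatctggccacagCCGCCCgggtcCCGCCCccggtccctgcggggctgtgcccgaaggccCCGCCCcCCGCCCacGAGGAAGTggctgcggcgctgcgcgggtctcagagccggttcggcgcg
The Arpc1b window held 7 matches to the GC box GGGCGG or its reverse complement CCGCCC, and the Arpc1a window held 0. This motif occurred in 35.7% of all 32851 promoter windows of the same length. The Arpc1b window also held 1 match to GAGGAAGT, a sequence of the kind bound by the blood-cell factor PU.1, which occurred in 3.2% of promoter windows on either strand. The Arpc1a window held 1 match to ACAAAG, a SOX-like sequence found in 18.7% of windows, and 1 match to CAGCTG, an E-box found in 16.3%. Neither window held the TATA box TATAAA, found in 13.6% of windows. The CCAAT box, searched by the letters of its name, was absent from both and found in 37.4%. The TEAD-like sequence GGAATG was also absent from both and found in 14.7%. None of the motif matches overlapped another. GC content was 69.3% for Arpc1b and 63.0% for Arpc1a, with 29 and 26 CpG pairs, against medians of 52.7% and 7 over all windows. A match is a description of the letters and not evidence of a bound site. Promoter windows were found for 9 of the 10 genes.

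Effective depth, estimated from the smallest step between values, was between 21760000 and 29340000 reads in 10 libraries and 15060000 in Prkcz cKO 3. Replicates of a group correlated at r = 0.992 to 0.996 across genes. The deleted genes were checked first: Prkci was 87.8 ± 2.52 (SD, n = 4) in controls and 67.0 ± 1.47 (n = 4) in Prkci cKO, a log2 change of −0.39 (limma adjusted p = 9.84e-04). Prkcz was 323 ± 20.2 (n = 4) in controls and 278 ± 15.1 (n = 3) in Prkcz cKO, which missed the threshold with a log2 change of −0.22 (limma adjusted p = 0.0966). Excitatory and inhibitory neuron markers were high in every library, with a summed value of 12323 to 13278 for 12 genes.

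Arpc1b was the only one of the 10 genes past the threshold against controls, and it was lower in both knockouts by a similar amount. The normalised values of Arpc1b were 15.5, 15.98, 15.9 and 13.9 in controls 1 to 4. They were 10.97, 11.1, 9.85 and 12.4 in Prkci cKO 1 to 4, and 11.4, 9.46 and 10.9 in Prkcz cKO 1 to 3. All 7 knockout libraries lay below the lowest control, and the 2 knockouts overlapped. The mean was 15.3 ± 0.983 (SD, n = 4) in controls and 11.1 ± 1.04 (n = 4) in Prkci cKO, a log2 change of −0.45 (SE 0.0852, 95% interval −0.64 to −0.27, limma adjusted p = 0.0144) or −26.9%. In Prkcz cKO the mean was 10.6 ± 1.015 (n = 3), a log2 change of −0.51 (SE 0.0920, 95% interval −0.71 to −0.32, limma adjusted p = 0.0265) or −30.0%. Both changes are set against the same 4 controls, so the 2 results are not independent. The difference between the knockouts was 0.06 on the log2 scale (95% interval −0.14 to 0.26, limma adjusted p = 0.768). Of the 14330 genes tested, 1.51% were called lower in Prkci cKO and 0.621% in Prkcz cKO. Values of Arpc1b correspond to about 161 to 359 estimated reads per library, the fewest in Prkcz cKO 3. In Prkci cKO the call was lost without Prkci cKO 2 (limma adjusted p = 0.0558) and with only the Pkcz f/f controls (limma adjusted p = 0.114), where 2 controls remain. In Prkcz cKO it was lost without control 1, 2 or 3 (limma adjusted p = 0.0594, 0.0715 and 0.0559), without Prkcz cKO 2 or 3 (0.114 and 0.0709) and with only the Pkcz f/f controls (0.128). With every library kept it was also lost in Prkcz cKO with equal column sums (limma adjusted p = 0.0640), no variance trend (0.0549) and a replicate block (0.0679). The fit of only the 2 groups lost it too (0.0625).

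**Figure D1:**
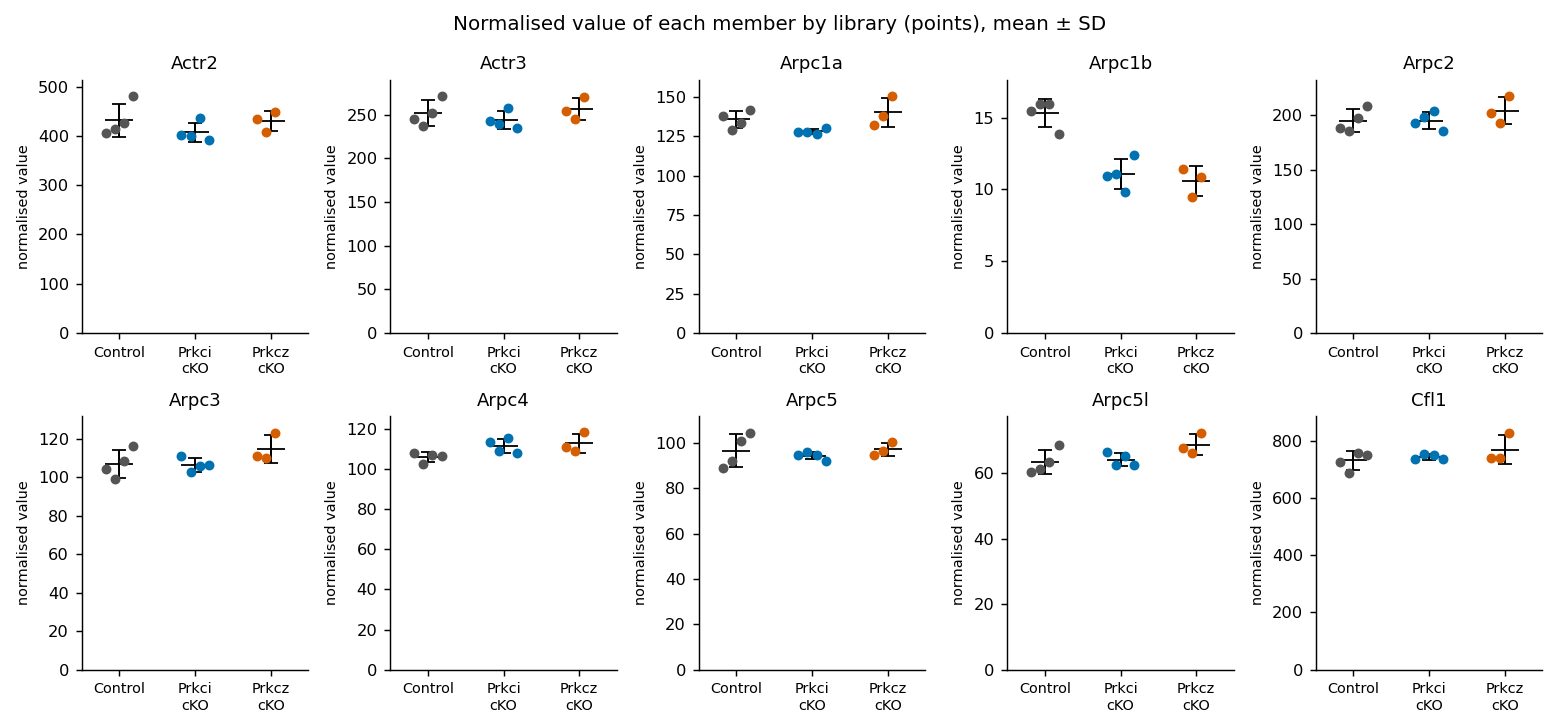
Normalised value of each of the 10 genes (vertical axes from 0, scaled by library size and not per length) in the 4 control, 4 Prkci cKO and 3 Prkcz cKO libraries (points), with bars for the mean ± SD. Arpc1b is the panel in which all 7 knockout libraries, at 9.46 to 12.4, lie below the controls, at 13.9 to 15.98.

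Arpc1a, the other form of the subunit, did not pass the test in either knockout. Its values were 138, 129, 134 and 142 in controls 1 to 4, 128, 128, 126 and 130.3 in Prkci cKO 1 to 4, and 132, 138 and 151 in Prkcz cKO 1 to 3. The groups overlapped in both comparisons with controls, with log2 changes of −0.08 (limma adjusted p = 0.541) and 0.05 (limma adjusted p = 0.694). Arpc1b was 11.2%, 12.4%, 11.9% and 9.78% of Arpc1a in controls 1 to 4, before any correction for length. The share was 8.57%, 8.68%, 7.79% and 9.51% in Prkci cKO 1 to 4, and 8.63%, 6.86% and 7.24% in Prkcz cKO 1 to 3. Every knockout library was below every control, control 4 and Prkci cKO 4 being the closest. The ratio is built on the same Arpc1b values, so it is not a separate result from the one above. The log2 ratio differed from controls by −0.37 in Prkci cKO (two-sided exact permutation p = 0.0286) and by −0.56 in Prkcz cKO (p = 0.0571). Each p is the smallest its design allows, and both were 0.114 after Benjamini-Hochberg adjustment over the 6 ratio tests. Between the knockouts the log2 ratio differed by 0.19 (exact permutation p = 0.171, adjusted p = 0.206).

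The other pair of alternative subunits, Arpc5 (chr1:152766542-152775597, plus strand) and Arpc5l (chr2:39005348-39015877, plus strand), gave no called change. Arpc5 was 88.6, 92.1, 101 and 104 in controls 1 to 4, 94.5, 95.7, 94.4 and 92.0 in Prkci cKO 1 to 4, and 94.7, 96.3 and 100.2 in Prkcz cKO 1 to 3. Arpc5l was 60.5, 61.3, 63.6 and 68.6 in controls, 66.5, 62.4, 65.5 and 62.5 in Prkci cKO, and 67.8, 66.3 and 72.4 in Prkcz cKO. The ranges of both genes overlapped between the groups. Log2 changes were −0.03 (limma adjusted p = 0.869) and 0.01 (0.938) for Arpc5, and 0.02 (0.933) and 0.12 (0.342) for Arpc5l, in Prkci cKO and Prkcz cKO. Arpc5l was 63.3% to 68.3% of Arpc5 in controls, 65.2% to 70.4% in Prkci cKO and 68.8% to 72.3% in Prkcz cKO. The 3 Prkcz cKO libraries were all above the 4 controls in this ratio, by 0.10 on the log2 scale (exact permutation p = 0.0571, the smallest possible, adjusted p = 0.114). The corresponding difference in Prkci cKO was 0.05 (exact permutation p = 0.229).

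**Figure D2:**
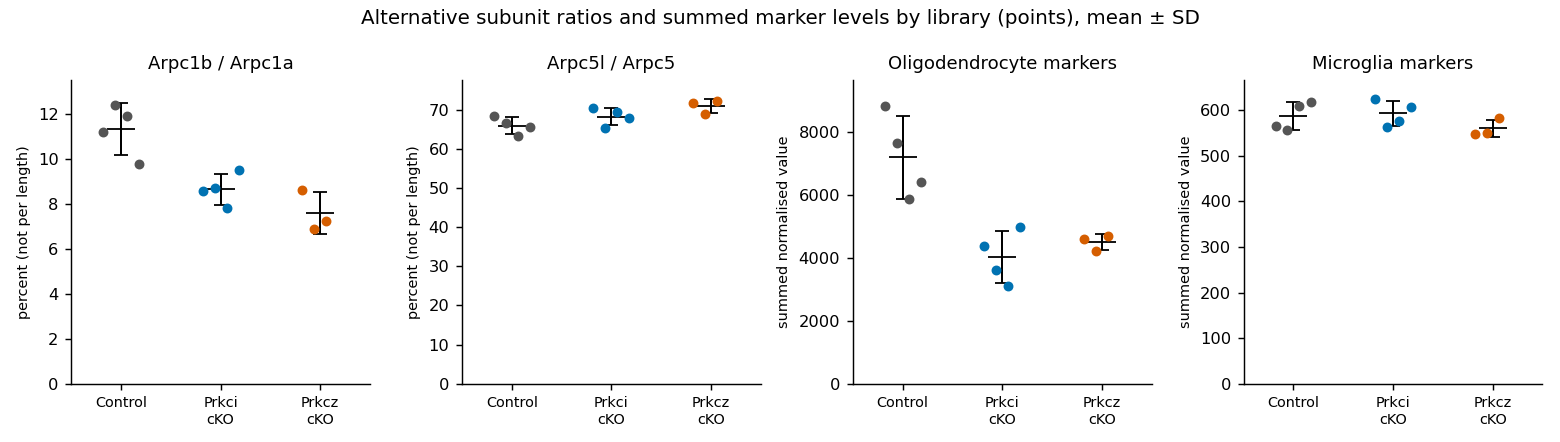
Left panels: Arpc1b as a percent of Arpc1a and Arpc5l as a percent of Arpc5 in each library (points; bars, mean ± SD), from normalised values and not per length. Right panels: summed normalised values of 15 oligodendrocyte and 15 microglia marker genes in the same libraries. Arpc1b relative to Arpc1a and the oligodendrocyte sum are both lower in all 7 knockout libraries than in the controls, while the microglia sums of the 3 groups overlap.

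Markers of the cell types in the punch were read beside Arpc1b. In bulk tissue, fewer cells of a type and less RNA per cell cannot be told apart. The sum of 15 oligodendrocyte markers was 5875 to 8815 in controls, 3109 to 4985 in Prkci cKO and 4199 to 4685 in Prkcz cKO, with every knockout library below every control. Of these 15 markers, 14 were called lower in Prkci cKO and 5 in Prkcz cKO. The sum of 10 precursor markers was 539 to 574 in controls, 491 to 550.05 in Prkci cKO and 415 to 490.2 in Prkcz cKO. Oligodendrocyte sums of 8815, 7633, 5875 and 6400 in controls 1 to 4 stood beside Arpc1b values of 15.5, 15.98, 15.9 and 13.9. Both Pkcz f/+ controls, 1 and 2, had higher sums than both Pkcz f/f controls, 3 and 4. In Prkcz cKO 1 to 3, sums of 4588, 4199 and 4685 stood beside 11.4, 9.46 and 10.9. In Prkci cKO the sums of 4362, 3617, 3109 and 4985 in replicates 1 to 4 stood beside Arpc1b values of 10.97, 11.1, 9.85 and 12.4. Microglia, which descend from the blood lineage in which ARPC1B is the usual form, had a 15-marker sum of 558 to 618 in controls, 564 to 625 in Prkci cKO and 549 to 583 in Prkcz cKO. None of those 15 microglia markers was called in either knockout, where 1.61% and 0.649% of all genes were called in Prkci cKO and Prkcz cKO. In each knockout 3 had an unadjusted limma p under 0.05. Log2 changes were below 0 for 5 of the 15 in Prkci cKO and for 11 in Prkcz cKO. The 10 endothelial markers summed to 230 to 258, 261 to 289 and 191 to 199 in controls, Prkci cKO and Prkcz cKO. In the same order of groups, 10 astrocyte markers summed to 5878 to 6470.2, 5903 to 6679 and 4493 to 5683, and 10 mural and fibroblast markers to 142 to 197, 167 to 193 and 122 to 136. The sums of 10 striatal markers were 733 to 1228, 363 to 677 and 743 to 1655, and those of 10 immediate early genes 533 to 1138, 406 to 483 and 292 to 465. None of the summed markers had a mean at or near 0 over all libraries, and single libraries were not checked for this. What share of the Arpc1b change goes with these cell types was not tested.

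The annotation places the end of Arpc1b over a neighbour on the opposite strand. In GENCODE M21, 1937 bases of Arpc1b overlap Pdap1, and 31.1% of the 100-base stretches of its principal transcript also occur in other genes, most of them in Pdap1. In RefSeq the Arpc1b model ends at position 145128186 and Pdap1 begins at 145128770, with no overlap. The annotation and strand setting behind the deposited values are unknown here, so some Arpc1b reads could belong to Pdap1. Pdap1 itself was 84.8 ± 3.93 in controls (n = 4), 88.9 ± 1.42 in Prkci cKO (n = 4) and 93.0 ± 5.28 in Prkcz cKO (n = 3). Its log2 changes were 0.07 (limma adjusted p = 0.626) and 0.13 (limma adjusted p = 0.255), above 0 where those of Arpc1b were below.

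The actin-related proteins that seed the branch were not called in either knockout. Actr2 (chr11:20062304-20112913, minus strand) was 406, 413, 426 and 480.3 in controls 1 to 4, 402, 400.1, 436 and 393 in Prkci cKO 1 to 4, and 434, 408 and 449 in Prkcz cKO 1 to 3. Actr3 (chr1:125392905-125435727, minus strand) was 246, 237, 253 and 272 in controls, 242, 239.8, 258 and 235 in Prkci cKO, and 254, 246 and 270.25 in Prkcz cKO. Control 4 had the highest value of both genes, and the groups overlapped. Log2 changes in Prkci cKO were −0.08 (95% interval −0.20 to 0.04, limma adjusted p = 0.634) for Actr2 and −0.04 (−0.15 to 0.06, 0.791) for Actr3. In Prkcz cKO they were −0.00 (95% interval −0.13 to 0.13, limma adjusted p = 0.994) for Actr2 and 0.03 (−0.09 to 0.15, 0.835) for Actr3. Part of the Actr3 transcript, 22.4% of its 100-base stretches, is shared with other annotated loci, chiefly the pseudogene Gm8822. Actr3b, a close relative of Actr3 that can take its place, was 95.8 ± 3.58 in controls (n = 4), 98.9 ± 7.04 in Prkci cKO (n = 4) and 108 ± 12.6 in Prkcz cKO (n = 3). Its log2 changes were 0.04 (limma adjusted p = 0.856) and 0.16 (limma adjusted p = 0.314).

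The remaining subunits form the core that holds the complex together and contacts the mother filament. Arpc2 (chr1:74236084-74268209, plus strand), which with ARPC4 forms the structural backbone, was 186 to 209 in controls, 185 to 204 in Prkci cKO and 193 to 218 in Prkcz cKO. Arpc3 (chr5:122391878-122414184, plus strand), which helps to join the actin-related proteins, was 99.2 to 116 in controls, 103 to 111 in Prkci cKO and 110.0 to 123 in Prkcz cKO. Both genes overlapped between the groups, with log2 changes of 0.00 (95% interval −0.11 to 0.11, limma adjusted p = 0.995) and 0.07 (−0.05 to 0.19, 0.595) for Arpc2. Those of Arpc3 were −0.01 (95% interval −0.13 to 0.11, limma adjusted p = 0.977) and 0.10 (−0.03 to 0.23, 0.447). Arpc4 (chr6:113378115-113390448, plus strand) was 108, 102, 107 and 107 in controls 1 to 4, 113, 109, 115 and 108 in Prkci cKO 1 to 4, and 111, 109 and 118 in Prkcz cKO 1 to 3. Every knockout library of Arpc4 was above every control, the closest being control 1 at 108.01 and Prkci cKO 4 at 108.15. The changes were small and not called: 0.07 (95% interval −0.02 to 0.16, limma adjusted p = 0.554) in Prkci cKO and 0.09 (−0.01 to 0.19, 0.391) in Prkcz cKO. Arpc4 and the next gene Ttll3 share 8.48% of the 100-base stretches of its transcript.

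Cfl1 (chr19:5490455-5495201, plus strand), the non-muscle cofilin, was the most abundant of the 10 genes and did not pass the test. It was 726, 688, 758 and 750.5 in controls 1 to 4, 735, 753, 751 and 735 in Prkci cKO 1 to 4, and 740.1, 739 and 827 in Prkcz cKO 1 to 3. The groups overlapped and only Prkcz cKO 3, the shallowest library, was above the highest control. Log2 changes were 0.03 (95% interval −0.08 to 0.13, limma adjusted p = 0.884) in Prkci cKO and 0.07 (−0.04 to 0.18, 0.538) in Prkcz cKO. Of the 100-base stretches of its transcript, 12.4% also occur in other genes, chiefly Snx32 on the opposite strand. Of the 20 other genes of the cofilin pathway, its LIM and TES kinases, slingshot phosphatases, cyclase-associated proteins and upstream PAK and ROCK kinases among them, 0 were called in any comparison by limma. Over all genes 1.61%, 0.649% and 0.3% were called in Prkci cKO, in Prkcz cKO and between the knockouts, so 0 of 20 does not set this list apart. At an unadjusted limma p under 0.05 there were 3 in Prkci cKO, 4 in Prkcz cKO and 6 between the knockouts. The share of all genes under that unadjusted p was not counted. The smallest p in Prkcz cKO belonged to Pak2, a kinase upstream of the LIM kinases, at 61.5 ± 0.738 (n = 3) against 68.3 ± 1.23 (n = 4) in controls (log2 change −0.15, limma adjusted p = 0.126). In Prkci cKO it belonged to Pdxp, a cofilin phosphatase, at 166 ± 3.26 (n = 4) against 153 ± 5.70 (n = 4) (log2 change 0.12, limma adjusted p = 0.260).

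Counted together, 1 of the 10 genes was called in each comparison with controls and 0 between the knockouts by limma. Over all genes tested, calls in either direction made up 1.61% in Prkci cKO, 0.649% in Prkcz cKO and 0.3% between the knockouts. Groups that did not overlap were seen for Arpc1b and Arpc4, 2 of 10, in each comparison with controls, where 8.49% and 11.9% of all genes did not overlap. Between the knockouts it was seen for Arpc1a alone, 1 of 10, against 13.8% of all genes. That gene was lower in all 4 Prkci cKO libraries than in the 3 Prkcz cKO libraries, with a log2 difference of −0.13 (95% interval −0.24 to −0.02), an unadjusted limma p of 0.0254 and an adjusted p of 0.262. It was the only one of the 10 under 0.05 before adjustment in that comparison. The median log2 change of the 10 genes was −0.02 in Prkci cKO (0.00 over all genes), 0.06 in Prkcz cKO (−0.01) and −0.07 between the knockouts (−0.01). Without Arpc1b the medians were −0.01, 0.07 and −0.07. Changes were above 0 for 4 genes in Prkci cKO and 8 in Prkcz cKO, where 50.9% and 48.2% of all genes were. In Prkci cKO 9 of 10 were lower than in Prkcz cKO, a comparison in which 48.5% of all genes were above 0. Most of the 10 varied together within groups, as described below, so these counts are not of independent genes. Prkcz cKO 3 was the highest of all 11 libraries for 6 of the 10 genes. Controls were not alike either: the mean of the 2 Pkcz f/f controls was above that of the 2 Pkcz f/+ controls for 9 of the genes, such as 453 against 410 for Actr2, and below it for Arpc1b, at 14.9 against 15.7.

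**Figure D3:**
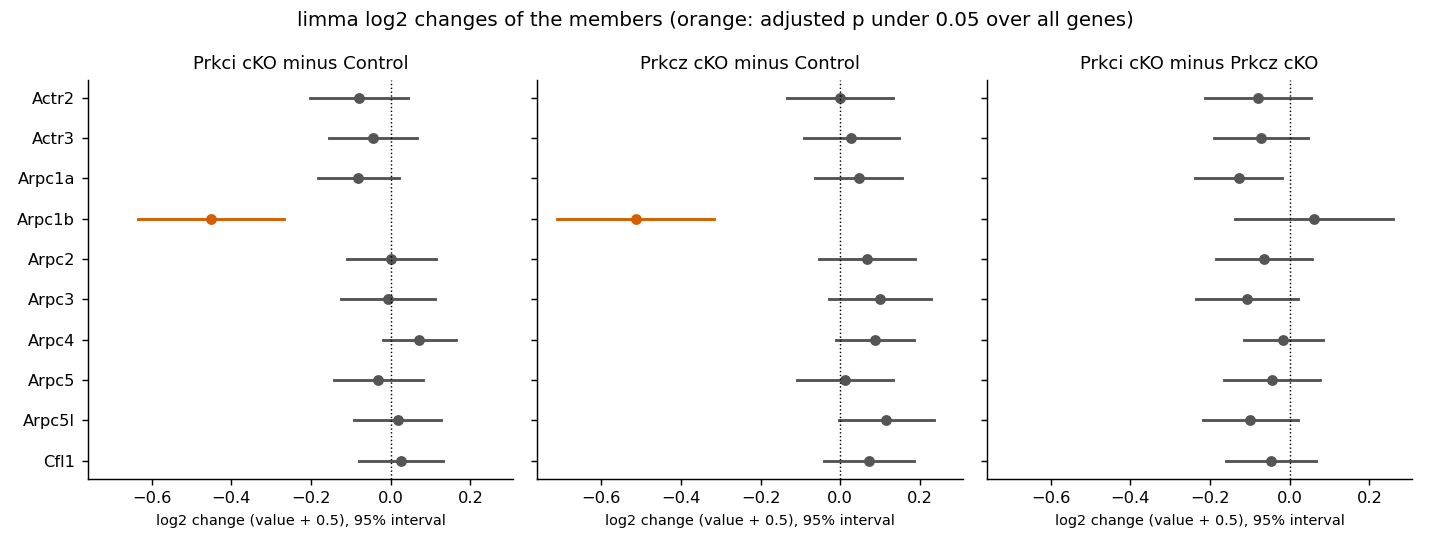
Log2 change of each of the 10 genes on the log2(value + 0.5) scale (horizontal axis; points, limma estimates; lines, 95% intervals) for each knockout set against controls and for Prkci cKO set against Prkcz cKO. Orange marks the 2 estimates past the threshold, Arpc1b at −0.45 and −0.51; the intervals of the other genes include 0 in both comparisons with controls, and that of Arpc1a, −0.24 to −0.02, does not between the knockouts.

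To compare levels between genes, values were divided by the length of the principal transcript. In controls Cfl1 was highest at 310 ± 13.4 per kilobase (SD, n = 4), followed by Arpc2 at 136 ± 7.33, Arpc3 at 119 ± 8.17, Actr2 at 119 ± 9.26, Actr3 at 98.1 ± 5.78 and Arpc1a at 83.2 ± 3.42. Arpc5 at 50.4 ± 3.83, Arpc5l at 47.4 ± 2.73 and Arpc4 at 46.7 ± 1.13 came next, and Arpc1b was last at 4.93 ± 0.317. Neighbours whose control libraries overlapped were Arpc2 and Arpc3, Arpc3 and Actr2, Arpc5 and Arpc5l, and Arpc5l and Arpc4. Arpc1b lay 9.465 times below the next gene, Arpc4. With this length and with the shortest one below, most of the first ARPC subunit's message in these punches was the Arpc1a form. Per kilobase, Arpc1b was 5.61% ± 0.533 (SD, n = 4) of Arpc1a and Arpc1b together in controls, 4.34% ± 0.338 (n = 4) in Prkci cKO and 3.83% ± 0.452 (n = 3) in Prkcz cKO. Arpc5l made up 48.5% ± 0.791, 49.4% ± 0.827 and 50.3% ± 0.655 of Arpc5 and Arpc5l together in the same groups. These levels rest on the transcript chosen. With the shortest coding transcript of each gene Arpc1b was at 10.99 per kilobase in controls and 11.7% of the pair, still last of the 10, and Arpc4 moved from the ninth to the second place, behind Cfl1.

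**Figure D4:**
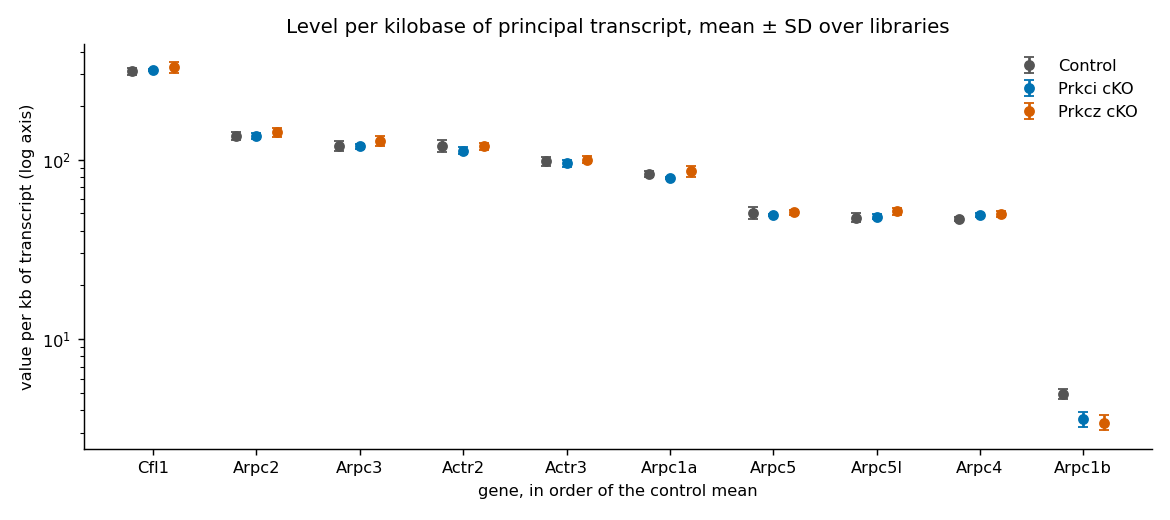
Normalised value per kilobase of principal transcript (vertical log axis) for the 10 genes in order of the control mean; points are group means and bars ± SD over 4 control, 4 Prkci cKO and 3 Prkcz cKO libraries. Cfl1 is highest at 310 and Arpc1b lowest at 4.93 in controls, and Arpc1b is the gene whose knockout means, 3.57 and 3.41, stand clear of the control mean.

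The wider pathway was read from 7 lists of 102 tested genes: relatives of the actin-related proteins, nucleation promoting factors and their partners, the WAVE complex, inhibitors of the complex, the cofilin pathway, small GTPases with their regulators, and other actin-binding proteins. None of the 102 was called higher in any comparison by limma. Called lower were 4 in Prkci cKO, or 3.92% where 1.51% of all genes were, and 2 in Prkcz cKO, or 1.96% where 0.621% were. Between the knockouts 0 were called. These shares rest on few genes, and the lists were not tested against the rest. The lists of relatives (4 genes), the WAVE complex (7) and the inhibitors (8), which hold arpin, PICK1 and coronins, had 0 calls in every comparison. At an unadjusted limma p under 0.05 they had 0, 0 and 3 genes in Prkci cKO, and 1 each in Prkcz cKO and between the knockouts. No share of all genes under that unadjusted p was counted to set beside these. Against controls, the smallest p in the WAVE list belonged to Nckap1l, the form of the NAP1 subunit used in blood cells, in Prkcz cKO: 12.1 ± 1.98 (n = 3) against 14.4 ± 0.737 in controls (n = 4, log2 change −0.26, limma adjusted p = 0.262). In the inhibitor list it belonged to Coro1a, the coronin of blood cells, in Prkcz cKO at 89.3 ± 3.16 (n = 3) against 81.0 ± 5.51 (n = 4, log2 change 0.14, limma adjusted p = 0.251). The smallest in Prkci cKO was Coro2a, another coronin, at 57.2 ± 2.89 against 51.8 ± 3.39 in controls (n = 4 each, log2 change 0.14, limma adjusted p = 0.305).

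Wipf1 encodes WIP, the partner that binds and stabilises WASP and N-WASP, and was the one pathway gene called lower in both knockouts. Its values were 20.9, 19.3, 20.4 and 16.4 in controls 1 to 4, 14.2, 13.0, 13.3 and 13.9 in Prkci cKO 1 to 4, and 13.8, 12.5 and 13.5 in Prkcz cKO 1 to 3. All knockout libraries were below the lowest control, control 4, which was also the lowest control for Arpc1b. Of all genes, 8.49% did not overlap between Prkci cKO and controls, and 11.9% between Prkcz cKO and controls. The share doing so in both was not counted. The log2 changes were −0.48 (SE 0.0781, limma adjusted p = 0.00576) and −0.52 (SE 0.0844, limma adjusted p = 0.0211). Both lost the call with only the Pkcz f/f controls (limma adjusted p = 0.0753 and 0.0934), and that in Prkcz cKO also without control 1 (0.0505) and without Prkcz cKO 2 or 3 (0.0940 and 0.0686). The other 13 tested genes of its list, the promoting factors of the WASP and WAVE families and cortactin among them, were not called.

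Rhog, a small GTPase that acts upstream of Rac, was 32.0, 26.0, 22.7 and 20.1 in controls 1 to 4 and 16.5, 14.7, 14.3 and 17.3 in Prkci cKO 1 to 4. It fell in Prkci cKO with no overlap, by 0.65 in log2 units (SE 0.127, limma adjusted p = 0.0174), and was 16.97, 19.7 and 22.8 in Prkcz cKO, overlapping the controls (log2 change −0.33, limma adjusted p = 0.287). Fyn, the Src-family kinase active in oligodendrocyte differentiation, was 166 to 173 in controls, 148 to 154 in Prkci cKO and 156 to 160.4 in Prkcz cKO. Its log2 changes were −0.16 (limma adjusted p = 0.0398) and −0.10 (limma adjusted p = 0.244). Inf2 and Daam1, formins that build unbranched filaments, were also called. Inf2 was 153 to 203 in controls, 106 to 128 in Prkci cKO (log2 change −0.55, limma adjusted p = 0.0104) and 127 to 173 in Prkcz cKO (−0.28, 0.236). Daam1 was 87.9 to 90.4 in controls, 80.1 to 87.0 in Prkci cKO (−0.10, limma adjusted p = 0.399) and 69.9 to 79.1 in Prkcz cKO (−0.25, 0.0379). None of these 4 genes differed between the knockouts past the threshold, so a call in one and not in the other does not show a difference. Single libraries decided some of these calls: Fyn lost its call without each of 9 libraries in turn (limma adjusted p up to 0.152), Daam1 without each of 9 (up to 0.125), Rhog without control 2 or Prkci cKO 2 or 3 (limma adjusted p = 0.0542, 0.0730 and 0.0567), and Inf2 without Prkci cKO 2 (0.0504). With only the Pkcz f/f controls, Rhog, Fyn and Daam1 lost their calls (limma adjusted p = 0.113, 0.0999 and 0.164). Fyn and Daam1 also lost theirs with equal column sums (0.127 and 0.101) and with no variance trend (0.0911 and 0.0965), and Daam1 with only the 2 groups fitted (0.111). The oligodendrocyte sums given above were lower in the same libraries, and how much of these changes goes with them was not tested.

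**Figure D5:**
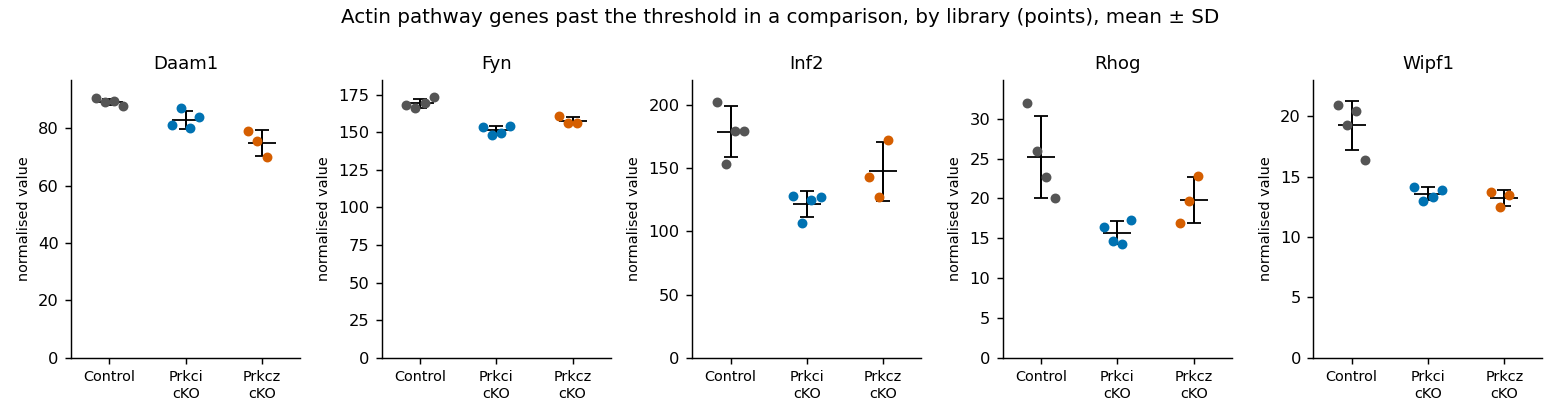
Normalised values (vertical axes from 0, not per length) of the 5 pathway genes called in a comparison with controls, in the 4 control, 4 Prkci cKO and 3 Prkcz cKO libraries (points; bars, mean ± SD). Wipf1 is lower in all 7 knockout libraries, at 12.5 to 14.2, than in the controls, at 16.4 to 20.9, while Rhog and Inf2 overlap the controls in Prkcz cKO.

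Within groups the genes of the complex varied together, apart from Arpc1b. After the group mean was taken from each log2 value, the 36 pairs without Arpc1b had a median Pearson r of 0.73 over the 11 libraries, with a range of 0.28 to 0.94. The 9 pairs of Arpc1b with the others had a median of −0.34 and a range of −0.46 to −0.09. These values are descriptions, as the points share their library and its scaling. As the median of the 10 genes, control 4 stood 0.107 (log2) and Prkcz cKO 3 0.0748 above their group means. Control 2 deviated by −0.0668. Control 4 was also the lowest control for Arpc1b. Among 12132 other genes, the one most like Arpc1b within groups was 1600021P15Rik (r = 0.972), followed by Smarcd2 (0.931), Bola3 (0.922), Frat2 (0.899) and Mbd1 (0.890). Those most like Arpc1a were Hist3h2ba (r = 0.973), Atp5b (0.940), Stk25 (0.932), Ctbs (0.928) and Tufm (0.913). For both genes these are the highest of 12132 correlations over only 11 libraries. Values this high can arise between unrelated genes, so a shared behaviour is not shown. None of these 10 genes was called in any comparison. Over all genes 1.61%, 0.649% and 0.3% were called in Prkci cKO, in Prkcz cKO and between the knockouts, so 0 of 10 does not set them apart.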

How the data were processed

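Total RNA of 11 cortical punches was sequenced with paired reads of 100 bases, per the labels' protocols. The submitters' processing notes name the build GRCm38 and the tools STAR, RSEM, edgeR, FastQC and Trim Galore, without versions. Annotation and scaling method are unstated in the sources used here. A normalised signal was deposited by the authors for every gene, scaled to library size and not to length, with column sums of 1021767 to 1082562. Of the values under 0.5, 85.9% to 89.2% lay within 0.005 of a whole multiple of 1 step per library, so depth could be estimated but whole reads could not be recovered, and count tests were not used.

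A gene was kept where 3 or more libraries had a value of 1 or above. All 11 libraries entered 1 limma 3.58.1 fit (R 4.3.3) on log2(value + 0.5), a scale that understates changes of low genes, without covariates, with a variance trend and 8 residual degrees of freedom. Two-sided p-values were Benjamini-Hochberg adjusted over all genes, and 0.05 was the threshold. Errors are SDs over libraries. The fit was checked on simulated data. Ratios of alternative subunits were compared by exact permutation of libraries. Positions, lengths and shared 100-base stretches came from GENCODE M21, and promoters from RefSeq.

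The genes and the pathway and marker lists were chosen with earlier results of these data known. By rule, the text names Prkci and Prkcz, the 10 genes, Actr3b, pathway genes past the threshold, genes among the 2 smallest p-values of a list without calls, and the 5 genes most like Arpc1a, Arpc1b and Cfl1 within groups; those of Cfl1 are not reported here. Alternatives were other pseudocounts, filters, scalings, weights and control sets, leaving out each library and a replicate block.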

Additional observations from a re-analysis of the deposited data

How the results depend on the processing

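The 10 genes were refitted under 23 alternatives, 11 of them leaving out 1 library each. The log2 change of Arpc1b stayed below 0 in all of them, between −0.51 and −0.40 in Prkci cKO and between −0.58 and −0.44 in Prkcz cKO, and no other gene of the 10 was called under any. The call of Arpc1b depended on the setting. In Prkci cKO the number of the 10 genes called by limma was 1, and 0 with only the Pkcz f/f controls. In Prkcz cKO it was 1, and 0 with equal column sums (Arpc1b adjusted p = 0.0640), no variance trend (0.0549), only the 2 groups fitted (0.0625) or only the Pkcz f/f controls (0.128). With each library left out in turn it was 0 to 1 in both. The median change of the 10 genes in Prkci cKO was −0.019, and −0.092 with only the Pkcz f/f controls. Of the 690 refitted changes of single genes among the 10, 34 had the opposite sign to the reported one, 5 of them with only the Pkcz f/f controls; none was called either way, and the reported sizes were at most 0.06 (log2).

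All genes called numbered 230 in Prkci cKO, against 346 with array weights, 132 with only the Pkcz f/f controls and 94 to 350 with libraries left out. In Prkcz cKO they numbered 93, against 39 with equal column sums, 30 with no variance trend, 29 with only the 2 groups fitted, 59 with only the Pkcz f/f controls and 12 to 111 with libraries left out. Between the knockouts there were 43, against 112 with array weights, 65 with only the Pkcz f/f controls and 10 to 151 with libraries left out. These alternatives were also applied to the pathway genes, a choice made after seeing the data. In Prkci cKO 4 were called, against 2 with no variance trend, 8 with array weights, 8 with only the 2 groups fitted, 1 with only the Pkcz f/f controls and 1 to 8 with libraries left out. In Prkcz cKO 2 were called, against 1 with equal column sums or no variance trend, 0 with only the 2 groups fitted or only the Pkcz f/f controls, and 0 to 2 with libraries left out. Between the knockouts there were 0, and 1 with array weights. With only the 2 groups fitted, Wipf1 in Prkcz cKO had an adjusted p of 0.0655, and with no variance trend Rhog in Prkci cKO had 0.0509. Fewer libraries enter the fits with only Pkcz f/f controls, those with only the 2 groups and those that leave 1 out. Why the calls moved was not tested for any setting.

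Whether the replicate numbers in the titles pair the samples is not stated. Deviations of same-numbered libraries correlated at −0.19 to 0.20. Differently numbered libraries were not compared with them, so these values cannot show whether the samples are paired. With the replicate block, 0 of the 10 genes were called in Prkcz cKO (Arpc1b adjusted p = 0.0679), and 73 genes differed between the knockouts in place of 43. The block also ended the calls of Daam1 in Prkcz cKO (0.0702) and Fyn in Prkci cKO (0.0662). Depth limits Arpc1b most, at 161 estimated reads in Prkcz cKO 3. No library of the 10 genes or the 2 ratios stood apart from its group of 4 by Dixon's test.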
